A study of Mus musculus with 8 samples.

Results

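The genes examined here encode proteins that coat lipid droplets in steatotic mouse liver, or that set how droplets bud, grow and are broken down. They were 10 genes chosen by name out of the 45706 Ensembl identifiers in the count table: the perilipins *Plin2*, *Plin3*, *Plin4* and *Plin5*, the CIDE genes *Cidea*, *Cideb* and *Cidec*, the FIT genes *Fitm1* and *Fitm2*, and *G0s2*. Each was found once by its identifier, and all 10 passed the filter on low counts. RNA had been sequenced from 8 liver samples of male mice labelled C56B6/J (C57BL/6J in the study's methods), 4 *Srsf10-kd* and 4 *Ctrl*. Every mouse had received an adeno-associated virus (AAV2/8) through the tail vein at 6 weeks of age, and a high-fat diet with 60% of calories from fat was begun 4 weeks later and continued for 12 weeks. In both groups the chicken beta-actin (CBA) promoter, which is not restricted to hepatocytes, drove GFP with a mirE/shRNA. The shRNA was directed against *Srsf10*, which encodes an RNA-binding protein of the SR family, in *Srsf10-kd* mice and was a control in *Ctrl* mice. No chow-fed mice and no wild-type mice without virus entered the comparison, so it addresses what the shRNA changed in livers on a fat-rich diet, not what the diet changed.

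A lipid droplet is a core of triglyceride and sterol ester under a single layer of phospholipid, and its coat proteins decide which enzymes reach the core. Perilipins bind the surface and limit lipolysis, CIDE proteins gather where droplets touch and pass lipid from the smaller to the larger one, FIT proteins of the endoplasmic reticulum help new droplets to bud, and the G0S2 protein inhibits adipose triglyceride lipase (encoded by *Pnpla2*). In hepatocytes the PLIN2 coat and CIDEB are constitutive, while CIDEA and CIDEC (also called FSP27) are known as proteins of fat tissue that appear in the fatty liver.

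Total counts lay between 50456404 and 59697241 a liver, and the members had from 47 counts (*Cidea* in *Ctrl* 4) to 76832 counts (*Plin2* in *Srsf10-kd* 1). Levels are given as CPM, counts scaled to the library size after TMM normalization. The transcript the shRNA targets had not fallen under the *Srsf10-kd* label, as *Srsf10* was at 34.0 to 41.0 CPM there and at 30.9 to 35.3 CPM in *Ctrl* (log2 fold change 0.15 ± 0.0995 SE, n = 4 a group, adjusted p = 0.378 by edgeR's quasi-likelihood test with Benjamini-Hochberg adjustment). The knockdown was thus not seen in the mRNA counts of these livers, and the livers are named by their labels throughout. The study itself reported lower SRSF10 protein by western blot and lower *Srsf10* RNA by qPCR in *Srsf10-kd* livers. A pair of livers stood at the ends of the first principal component (44.8% of the variance), *Ctrl* 4 at -41.75 and *Srsf10-kd* 3 at 67.41. The slope of log2 level on log2 transcript length was 0.0906, 0.10, -0.0303 and 0.133 in *Ctrl* 1 to 4. In *Srsf10-kd* 1 to 4 it was -0.0243, -0.0238, -0.181 and -0.0639. The groups overlapped, as *Ctrl* 3 lay within the range of *Srsf10-kd*, while the other *Ctrl* livers were above every *Srsf10-kd* liver. The hepatocyte marker list was present in every liver (8 of 8 genes, summed level 76629 to 105102 CPM in *Ctrl* and 94050 to 110723 CPM in *Srsf10-kd*).

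The stretches around the annotated starts are shown for 3 members, *Plin3* and *Fitm2* because their groups did not overlap, and *Cidec* because it ranged most widely among the members above 10 CPM. RefSeq (GRCm38.p6) held such windows, from 250 bases before to 50 bases after a start, for 9 of the 10 members (all but *Cidea*). All 4 windows lie on the minus strand and are written 5′ to 3′. Capitals mark a GC box (GGGCGG) or a CCAAT box (CCAAT), each searched on both strands. *Cidec* has 2 annotated starts, and a single count a gene does not tell them apart.
*Plin3*, chr17:56290462-56290761: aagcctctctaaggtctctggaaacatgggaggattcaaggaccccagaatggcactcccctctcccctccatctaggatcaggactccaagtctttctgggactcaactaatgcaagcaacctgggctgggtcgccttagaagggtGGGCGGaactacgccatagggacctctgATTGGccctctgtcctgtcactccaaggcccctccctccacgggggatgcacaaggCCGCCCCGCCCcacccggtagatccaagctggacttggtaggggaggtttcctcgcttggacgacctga
*Fitm2*, chr2:163472580-163472879: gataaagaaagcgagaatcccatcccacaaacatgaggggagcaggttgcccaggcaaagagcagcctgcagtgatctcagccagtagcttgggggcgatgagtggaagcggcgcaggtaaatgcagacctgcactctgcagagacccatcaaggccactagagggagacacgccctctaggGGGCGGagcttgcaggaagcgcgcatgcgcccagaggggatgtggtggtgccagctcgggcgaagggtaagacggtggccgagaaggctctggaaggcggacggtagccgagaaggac
*Cidec*, the start farther upstream, chr6:113435711-113436010: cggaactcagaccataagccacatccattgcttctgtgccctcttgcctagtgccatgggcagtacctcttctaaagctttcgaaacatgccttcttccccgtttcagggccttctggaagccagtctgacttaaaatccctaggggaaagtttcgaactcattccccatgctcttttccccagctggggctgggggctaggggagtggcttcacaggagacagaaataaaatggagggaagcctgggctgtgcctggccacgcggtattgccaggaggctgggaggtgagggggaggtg
*Cidec*, the start farther downstream, chr6:113434715-113435014: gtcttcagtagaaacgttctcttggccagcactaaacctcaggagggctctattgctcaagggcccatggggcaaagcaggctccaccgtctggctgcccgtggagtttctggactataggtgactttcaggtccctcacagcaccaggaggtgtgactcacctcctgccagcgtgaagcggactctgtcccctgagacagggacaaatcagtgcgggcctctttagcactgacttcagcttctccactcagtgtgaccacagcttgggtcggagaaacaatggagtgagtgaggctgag

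The *Plin3* window held 3 GC boxes, at 103, 19 and 14 bases before the start, the last pair overlapping, and a CCAAT box at 75 bases before it. *Fitm2* had a single GC box at 68 bases before its start. Neither *Cidec* window held a capital, that is, neither motif occurred in these letters. Over all 32851 windows of the RefSeq table, 35.7% held a GC box and 37.4% a CCAAT box. Among the 11 windows of the members, 7 held a GC box (in *Plin2*, *Plin3*, *Plin5*, *Cideb*, *Fitm2* and *G0s2*) and 4 a CCAAT box (in *Plin2*, *Plin3*, *Plin4* and *Plin5*). The E-box CACGTG was found in the *Plin2* window alone among the members, against 7.15% of all windows. A DR1 element, the arrangement read by PPAR receptors, was searched as 2 copies of AGGNCA with 1 base between them. It was found in 0 of the 11 windows and in 0.381% of all windows.

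Per kilobase of the longest transcript, the members spanned a wide range of levels in these livers. *Plin2* was highest with a median of 575 CPM per kb over the 8 livers, followed by *G0s2* at 400 and *Cideb* at 196 CPM per kb. *Plin5* (80.0), *Fitm1* (50.8), *Cidec* (33.1) and *Fitm2* (27.8 CPM per kb) formed the middle, and *Plin3* (11.7), *Plin4* (5.89) and *Cidea* (3.54 CPM per kb) were lowest. Between neighbours in this order the ranges over livers were separate only for *G0s2* above *Cideb*, *Cideb* above *Plin5*, and *Fitm2* above *Plin3*. *Plin2* exceeded *G0s2* in 7 of 8 livers, *Plin5* exceeded *Fitm1* in 6, *Cidec* exceeded *Fitm2* in 5, and *Plin3* exceeded *Plin4* in all 8 although their ranges overlapped. *Plin2* made up 77.4% to 88.1% of the summed perilipin level of a liver. *Cideb* made up 71.7% to 90.6% of the summed CIDE level, and the share of *Cidec* ran from 6.50% in *Srsf10-kd* 3 to 28.1% in *Ctrl* 4.

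**Figure D1:**
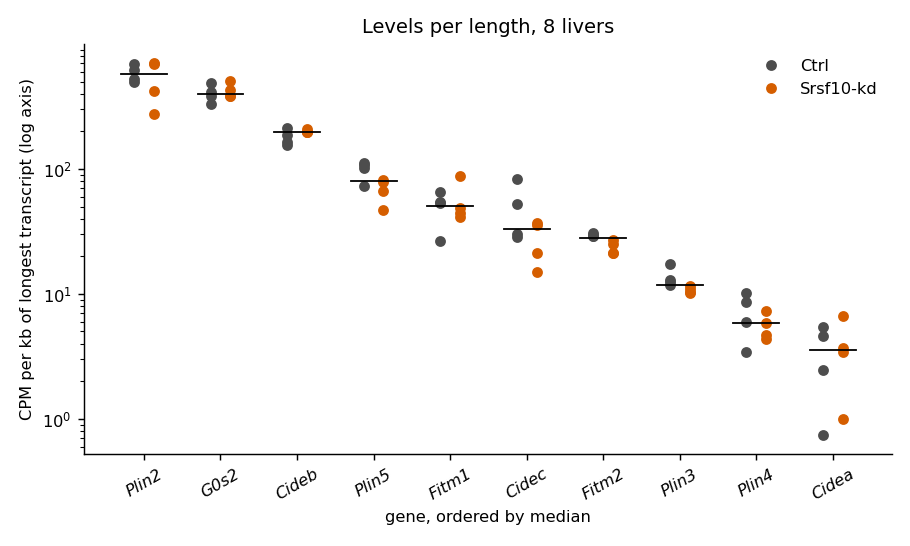
Level of each member per kilobase of its longest transcript (CPM per kb, log axis) in 4 *Ctrl* livers (grey) and 4 *Srsf10-kd* livers (orange), with the median of all 8 as a line. *Plin2* stood at the top with a median of 575 and *Cidea* at the bottom with 3.54 CPM per kb.

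Between the groups, none of the 10 members passed an adjusted p of 0.05. With p adjusted by Benjamini-Hochberg across 15491 genes, edgeR's quasi-likelihood test called 0 members and 11 of all genes (0.071%). DESeq2 called 0 members and 5.27% of all genes, while 0 members and 11.7% of all genes were called by limma-voom weighted by sample quality. At an unadjusted p under 0.05 edgeR gave 3 members (*Plin3*, *Plin5* and *Fitm2*, all lower in *Srsf10-kd*), a share of 30% against 21.8% of all genes. The groups did not overlap for 2 of the 10 members, both lower in *Srsf10-kd*, where 14.3% of all genes did not overlap and 7.53% did so with *Srsf10-kd* lower. The estimate was below 0 for 6 members and above 0 for 4. The median log2 fold change of the members was -0.24, beside 0.013 over all genes tested. With the transcript length trend removed from each library, all 10 estimates were below 0 (49.2% of all genes were), with a median of -0.23, and edgeR called 0 members (0.0581% of all genes). At an unadjusted p under 0.05 that fit gave 3 members (*Plin5*, *Cidec* and *Fitm2*), against 15.5% of all genes.

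**Figure D2:**
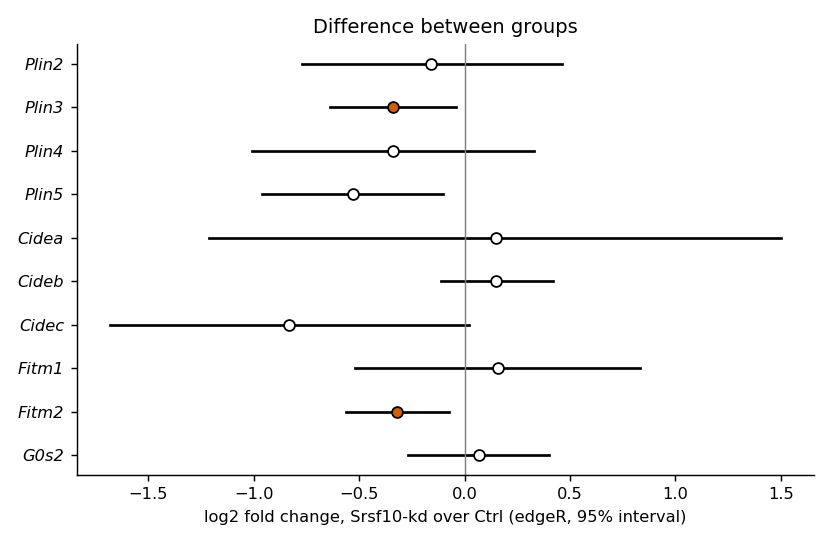
Fitted log2 fold change of each member, *Srsf10-kd* over *Ctrl* (4 livers each), with its 95% interval from edgeR. Filled points are *Plin3* and *Fitm2*, whose groups did not overlap. The interval of *Cidec* runs from -1.68 to 0.023 and that of *Cidea* from -1.21 to 1.5.

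All 4 perilipins among the members had estimates below 0, as had 48.7% of all genes. Their median was -0.34, and none passed the adjusted threshold. *Plin2*, the main droplet coat of hepatocytes (ENSMUSG00000028494, chromosome 4, 86648386 to 86670060 in GRCm38), was at 1179, 941, 992 and 1306 CPM in *Ctrl* 1 to 4 and at 1339, 794, 520 and 1305 CPM in *Srsf10-kd* 1 to 4. The *Srsf10-kd* livers thus held both the highest and the lowest value, and the groups overlapped fully. The log2 fold change was -0.16 ± 0.276 (SE), with a 95% interval from -0.77 to 0.46 and adjusted p = 0.741 by edgeR. Leaving out *Srsf10-kd* 3 turned its sign to 0.055.

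*Plin5*, which ties droplets to mitochondria and is expressed in oxidative tissues (chromosome 17, 56111601 to 56117596), was at 146, 203, 215 and 221 CPM in *Ctrl* 1 to 4. In *Srsf10-kd* 1 to 4 it was at 156, 93.0, 131 and 162 CPM. *Ctrl* 2, 3 and 4 stood above every *Srsf10-kd* liver, while *Ctrl* 1 lay among them. Mean levels were 196 ± 34.3 CPM (SD, n = 4) in *Ctrl* and 136 ± 31.3 CPM in *Srsf10-kd*, a log2 fold change of -0.53 ± 0.193 (SE). Its adjusted p was 0.174 by edgeR, and a two-sided exact permutation test (70 ways to split the livers) gave p = 0.0857.

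*Plin3*, the broadly expressed perilipin that binds small nascent droplets (chromosome 17, 56277476 to 56292873), was at 43.1, 45.2, 63.8 and 46.7 CPM in *Ctrl* 1 to 4. It was at 40.1, 36.7, 37.6 and 42.3 CPM in *Srsf10-kd* 1 to 4. Every *Srsf10-kd* liver was below every *Ctrl* liver, but *Srsf10-kd* 4 and *Ctrl* 1 nearly met, and *Ctrl* 3 stood apart above the rest. This was a log2 fold change of -0.34 ± 0.135 (SE), with a 95% interval from -0.64 to -0.04 and adjusted p = 0.196 by edgeR. The exact permutation p was 0.0286, the smallest that 4 livers against 4 can give. Without *Ctrl* 3 the log2 fold change was -0.2.

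*Plin4*, a perilipin with a long amphipathic repeat that is abundant in fat tissue and muscle (chromosome 17, 56100591 to 56109803), was at 57.9, 49.9, 19.8 and 34.0 CPM in *Ctrl* 1 to 4. It was at 33.8, 41.9, 25.0 and 27.1 CPM in *Srsf10-kd* 1 to 4. Both the highest livers (*Ctrl* 1 and 2) and the lowest (*Ctrl* 3) were controls, so the groups overlapped. The log2 fold change was -0.34 ± 0.299 (SE; adjusted p = 0.497 by edgeR). It ranged from -0.12 without *Ctrl* 1 to -0.57 without *Ctrl* 3. *Plin1*, the perilipin of adipocytes and not a member, was at 0 to 60 counts a liver. Its estimate was above 0, at 1.11 ± 1.11 (SE; adjusted p = 0.551 by edgeR).

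**Figure D3:**
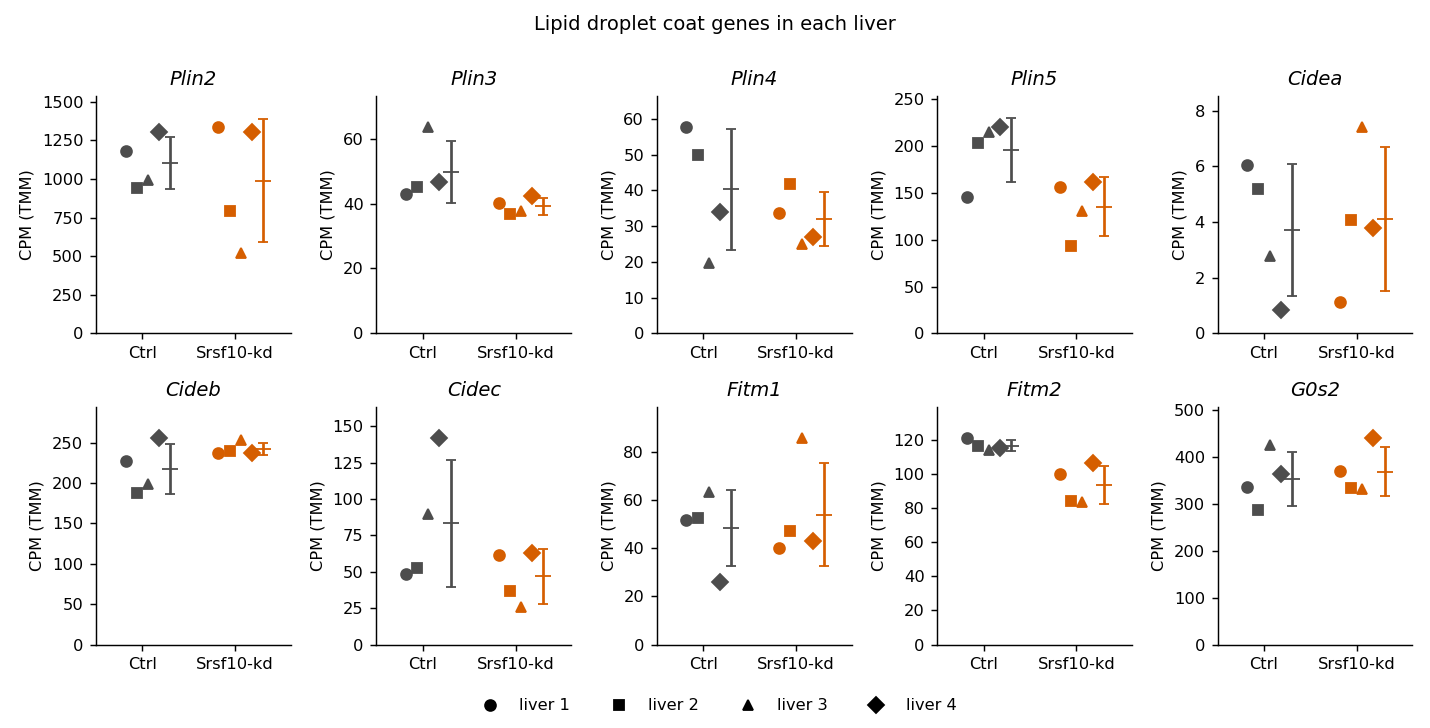
CPM of each member in each liver, with *Ctrl* in grey and *Srsf10-kd* in orange, the symbol giving the liver's number in its group (equal numbers do not pair livers) and the bar the mean ± SD of 4 livers. *Fitm2* ran from 114 to 121 CPM in *Ctrl* and from 83.7 to 106 CPM in *Srsf10-kd*, while *Cidec* ran from 48.7 to 142 and from 25.7 to 63.2 CPM.

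Of the CIDE genes, *Cidec* had the estimate farthest from 0 of all members. *Cidec*, which drives the enlargement of droplets into single large ones (ENSMUSG00000030278, chromosome 6, 113424634 to 113435760), was at 48.7, 52.3, 89.9 and 142 CPM in *Ctrl* 1 to 4. In *Srsf10-kd* 1 to 4 it was at 61.8, 36.5, 25.7 and 63.2 CPM. *Ctrl* 3 and 4 were above all *Srsf10-kd* livers and *Srsf10-kd* 2 and 3 below all *Ctrl* livers. The remaining 4 livers went the other way, with *Srsf10-kd* 1 and 4 above *Ctrl* 1 and 2. Mean levels were 83.3 ± 43.4 CPM (SD, n = 4) in *Ctrl* and 46.8 ± 18.6 CPM in *Srsf10-kd*. This gave a log2 fold change of -0.83 ± 0.383 (SE), with a 95% interval from -1.68 to 0.023, an adjusted p = 0.238 by edgeR and an exact permutation p of 0.171. It was -0.44 without *Ctrl* 4 and -0.20 with limma-voom's sample quality weights.

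*Cideb*, the constitutive CIDE gene of hepatocytes that also takes part in the lipidation of very low density lipoprotein (chromosome 14, 55754050 to 55758458), was among the steadiest members. It was at 227, 188, 199 and 256 CPM in *Ctrl* 1 to 4 and at 237, 240, 253 and 237 CPM in *Srsf10-kd* 1 to 4. The *Srsf10-kd* livers lay close together inside the range of *Ctrl*. Its log2 fold change was 0.15 ± 0.118 (SE), with a 95% interval from -0.11 to 0.42 and adjusted p = 0.442 by edgeR. *Cideb* overlaps the antisense gene *Nop9*, with which 66.9% of its 75-base stretches are shared, and since the strand setting of the counting is not given in the sources used here, reads of the pair may be mixed. Every other member shared at most 3.98% of its 75-base stretches with another gene.

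*Cidea*, a CIDE gene of brown fat that is induced in fatty liver (on chromosome 18, 67343604 to 67367785), was the scarcest member. Levels were 6.06, 5.17, 2.77 and 0.825 CPM in *Ctrl* 1 to 4 and 1.12, 4.09, 7.43 and 3.79 CPM in *Srsf10-kd* 1 to 4. The lowest value rested on 47 counts in *Ctrl* 4, next to 64 counts in *Srsf10-kd* 1, and the highest on 382 counts in *Srsf10-kd* 3. Each group thus held livers near the bottom and near the top. The log2 fold change of 0.15 had a standard error of 0.606 and a 95% interval from -1.21 to 1.5, so that a difference of 2-fold in either direction lay inside it. Its sign turned without *Ctrl* 4 (-0.19) and without *Srsf10-kd* 3 (-0.31).

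The FIT genes had estimates of opposite sign. *Fitm2*, the broadly expressed member needed for droplet budding (ENSMUSG00000048486, chromosome 2, 163466379 to 163472629), was at 121, 116, 114 and 115 CPM in *Ctrl* 1 to 4. It was at 100, 84.1, 83.7 and 106 CPM in *Srsf10-kd* 1 to 4. Every *Srsf10-kd* liver was below every *Ctrl* liver, and the controls differed little among themselves (117 ± 3.13 CPM, SD, n = 4, against 93.6 ± 11.4 CPM). The log2 fold change was -0.32 ± 0.11 (SE), with a 95% interval from -0.56 to -0.075 and adjusted p = 0.161 by edgeR, the smallest of the members. The exact permutation p was 0.0286. DESeq2 gave an adjusted p of 0.0809 and limma-voom 0.0728.

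*Fitm1*, the form known from skeletal muscle (chromosome 14, 55575617 to 55576954), was at 51.7, 52.7, 63.5 and 25.9 CPM in *Ctrl* 1 to 4. It was at 40.1, 47.0, 85.9 and 43.0 CPM in *Srsf10-kd* 1 to 4. *Ctrl* 4 was lowest and *Srsf10-kd* 3 highest, so the groups overlapped. Among the other 6 livers, every *Srsf10-kd* liver was below every *Ctrl* liver. The livers set aside were picked by these same values, which favours such an order, so it is no test of the groups. The log2 fold change was 0.16 ± 0.303 (SE; adjusted p = 0.769 by edgeR). Its sign turned without either extreme liver, to -0.053 without *Ctrl* 4 and to -0.16 without *Srsf10-kd* 3. The skeletal muscle marker list, of which 4 of 8 genes passed the filter, was highest in the liver where *Fitm1* was lowest (summed level 28.7 CPM in *Ctrl* 4 and 0.66 to 8.51 CPM elsewhere), and its part in these values was not tested.

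*G0s2*, the inhibitor of adipose triglyceride lipase (chromosome 1, 193272161 to 193273217), was at 335, 287, 425 and 363 CPM in *Ctrl* 1 to 4. In *Srsf10-kd* 1 to 4 it was at 371, 333, 331 and 441 CPM. The values of the groups interleaved, and the log2 fold change was 0.067 ± 0.15 (SE), with a 95% interval from -0.27 to 0.40 and adjusted p = 0.801 by edgeR. Set against *Pnpla2* in the same liver, the log2 ratio was 1.81 ± 0.57 (SD, n = 4) in *Ctrl* and 2.0 ± 0.13 in *Srsf10-kd* (difference 0.20, exact permutation p = 0.457). Without *Ctrl* 3 the difference was 0.45 (exact permutation p = 0.0286, unadjusted and the smallest that 3 livers against 4 can give). Without *Ctrl* 4 it was 0.01.

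The members differed widely in how far livers of 1 group stood apart. The within-group SD of log2 level was 1.21 for *Cidea*, 0.68 for *Cidec* and 0.54 for both *Plin4* and *Fitm1*, beside a median of 0.26 over all genes tested. These 4 members were above the 90th percentile of all genes, *Cidea* at 99.5 and *Cidec* at 96.0. *Fitm2* (SD 0.13, percentile 13.2) and *Cideb* (SD 0.14, percentile 18.1) were at the steady end. From the lowest to the highest liver, CPM spanned 9.01-fold for *Cidea*, 5.52-fold for *Cidec*, 2.57-fold for *Plin2*, 1.45-fold for *Fitm2* and 1.36-fold for *Cideb*.

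Many of the extremes were in the livers at the ends of the first principal component. That component was computed from the levels of all genes tested, the members included, so its end livers hold extremes of many genes. The share over all genes is not given here, so this is no trait particular to the members. *Ctrl* 4 held the highest level of 3 members (*Plin5*, *Cideb* and *Cidec*) and the lowest of *Cidea* and *Fitm1*. *Srsf10-kd* 3 was the reverse for some of them, with the highest *Cidea* and *Fitm1* and the lowest *Cidec*, *Plin2* and *Fitm2*. After the trend of level on transcript length was removed from each library, *Cidec* still deviated from its mean over livers by 1.45 in *Ctrl* 4 and -1.41 in *Srsf10-kd* 3 on the log2 scale (1.30 and -1.16 before). For *Fitm1*, a short transcript, the deviations shrank from -0.91 to -0.65 in *Ctrl* 4 and from 0.82 to 0.37 in *Srsf10-kd* 3. The adipocyte marker list had a summed level of 22.2 to 34.5 CPM in *Ctrl* and 29.1 to 70.3 CPM in *Srsf10-kd*, and 6 of its 8 genes passed the filter. The highest sum, in *Srsf10-kd* 3, came mostly from *Fabp4* (33.1 CPM) and *Cfd* (31.5 CPM). In that liver *Adipoq* was at 0.233 CPM, *Plin1* at 0.0389 CPM and *Retn* at 0. These genes were highest in *Srsf10-kd* 4, at 2.21, 1.07 and 0.855 CPM, as was *Fabp4* (45.5 CPM). Other genes of the list peaked elsewhere, *Lep* in *Srsf10-kd* 2 (0.135 CPM), *Trarg1* in *Ctrl* 2 (1.03 CPM) and *Adrb3* in *Ctrl* 1 (7.93 CPM). *Retn* and *Lep* were the genes that did not pass the filter. In bulk liver, fewer cells of a type and less RNA in each cell cannot be told apart.

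**Figure D4:**
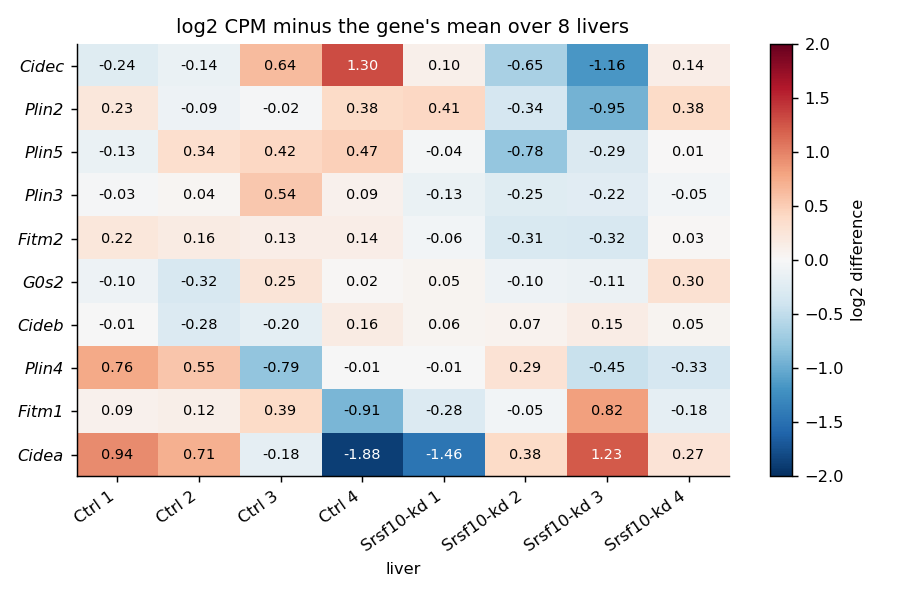
log2 CPM of each member (rows) in each liver (columns) minus the member's mean over the 8 livers, red above and blue below. *Cidec* was at 1.30 in *Ctrl* 4 and -1.16 in *Srsf10-kd* 3, where *Cidea* was at -1.88 and 1.23.

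*Cidea* and *Cidec* ran against each other over the 8 livers, with Pearson's r of -0.79 (exact permutation p = 0.0194) and Spearman's rho of -0.86 (exact permutation p = 0.0107). The r was -0.82 without the 2 livers farthest from the median of *Cidea*, -0.98 within *Ctrl* and -0.76 within *Srsf10-kd*. The log2 ratio of *Cidea* to *Cidec* spanned 5.58 from *Ctrl* 4 (-7.37) to *Srsf10-kd* 3 (-1.79), a 47.8-fold range. *Plin5* and *Cidec* ran together, with an r of 0.77 (exact permutation p = 0.0273) and a rho of 0.90 (exact permutation p = 0.00456), and their r was 0.76 without the 2 farthest livers, 0.73 within *Ctrl* and 0.60 within *Srsf10-kd*. *Plin3* and *Plin5* had an r of 0.76 (exact permutation p = 0.0306) and a rho of 0.90 (exact permutation p = 0.00456), and their r was 0.89 without the 2 farthest livers, 0.52 within *Ctrl* and 0.87 within *Srsf10-kd*. Over the 45 pairs of members none passed Benjamini-Hochberg adjustment, the smallest adjusted values being 0.219 for r and 0.103 for rho. The smallest p for r was that of *Cidea* and *Fitm1* (r of 0.79, exact permutation p = 0.0139). Their r fell to 0.42 without the 2 livers farthest from the median of *Cidea*. Next came *Plin5* and *Fitm2*, with an r of 0.78 (exact permutation p = 0.0172). Their r was -0.99 within *Ctrl* and 0.82 within *Srsf10-kd*. *Plin2* and *Fitm1* ran against each other, with an r of -0.78 (exact permutation p = 0.0279) and a rho of -0.81 (exact permutation p = 0.0218). The r of this pair was -0.72 without the 2 livers farthest from the median of *Plin2*, -0.81 within *Ctrl* and -0.92 within *Srsf10-kd*. *Plin2* and *Cidec* had an r of 0.75 (exact permutation p = 0.0341; rho 0.71, exact permutation p = 0.0576) that fell to 0.23 without the 2 livers farthest from the median of *Plin2*, on which the pooled value rested. Within *Ctrl* their r was 0.51, and it rounded to 1.0 over the 4 *Srsf10-kd* livers.

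None of 8 log2 ratios between members, or with *Pnpla2*, passed the test between the groups. The log2 ratio of *Cidec* to *Cideb* was -1.52 ± 0.63 (SD, n = 4) in *Ctrl* and -2.46 ± 0.67 in *Srsf10-kd*, a difference of -0.95 with an exact permutation p of 0.114 (0.778 after adjustment over the 8 ratios). *Plin5* relative to *Plin2* differed by -0.30 (exact permutation p = 0.40), and *Fitm1* relative to *Fitm2* by 0.49 (exact permutation p = 0.429). *Plin4* relative to *Plin2* differed by -0.0065 (exact permutation p = 0.971).

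For the 3 members with the widest ranges of log2 level, the tested genes closest in their course over the 8 livers were found by the root mean square difference of centred log2 CPM. Closest to *Cidea* were *Trhde* (0.432), *Car3* (0.439), *Cyp2a5* (0.456), *Serpina7* (0.465) and *Slc13a4* (0.469), against a range of 3.12 for *Cidea*. *Car3*, a carbonic anhydrase, was lowest in *Ctrl* 4 (465 CPM) and highest in *Srsf10-kd* 3 (3757 CPM). Closest to *Cidec* were *A730036I17Rik* (0.104), *Gm12265* (0.179), *Slc41a3* (0.19), *Elovl2* (0.20) and *Il17rb* (0.226), against a range of 2.46. *Elovl2*, a fatty acid elongase, was at 1434 CPM in *Ctrl* 4 and 356 CPM in *Srsf10-kd* 3. Closest to *Fitm1* were *Zfp992* (0.109), *Cox16* (0.121), *Zfp979* (0.123), *Aard* (0.139) and *Immp2l* (0.164), against a range of 1.73. Some of these closest genes were scarce, and their course rests on few counts. *A730036I17Rik* was at 0.156 to 0.79 CPM and *Slc13a4* at 0.0702 to 0.778 CPM over the 8 livers.

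Around the coat genes, a list of 58 other lipid droplet genes (lipases, biogenesis and growth, tethers, droplet-bound enzymes, transcription factors and lipid uptake) had 57 members tested. By edgeR's quasi-likelihood test with Benjamini-Hochberg adjustment, 1 of the 57 fell and 0 rose, beside 0.071% called among all genes. It was *Ppara*, the nuclear receptor that drives fatty acid oxidation and several droplet coat genes in hepatocytes. *Ppara* was at 177, 208, 168 and 234 CPM in *Ctrl* 1 to 4 and at 88.4, 84.6, 77.8 and 82.3 CPM in *Srsf10-kd* 1 to 4. Every *Srsf10-kd* liver was far below every *Ctrl* liver, with a log2 fold change of -1.24 ± 0.126 (SE; adjusted p = 0.0166 by edgeR). By edgeR's adjusted p, dropping *Srsf10-kd* 1 (0.0823), 2 (0.0536) or 4 (0.0969) or *Ctrl* 2 (0.106) ended the call, while the log2 fold change stayed between -1.31 and -1.15 in all 16 alternatives. Each of those fits called 0 genes in the whole table. On all livers *Ppara* was also called by DESeq2 (adjusted p = 1.73e-15) and by limma-voom (adjusted p = 0.00164).

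At an unadjusted p under 0.05 the list had 11 genes by edgeR, a share of 19.3% against 21.8% of all genes tested. The groups did not overlap for 7 genes, a share of 12.3% against 14.3% of all genes. Its estimates were below 0 for 36 genes and above 0 for 21, with a median log2 fold change of -0.044. In the group of tethers, Rab GTPases and lipid transfer proteins, 9 of 10 estimates were below 0, where 48.7% of all genes were, and the median was -0.42, with 0 genes called and 5 at an unadjusted p under 0.05 by edgeR. With the transcript length trend removed, 8 of the 10 were below 0 and the median was -0.25. The 8 turnover genes had a median of -0.077 and the 6 droplet-bound enzymes 0.084 (-0.078 with the length trend removed), with 0 called and 0 at an unadjusted p under 0.05 in either group by edgeR. The cholangiocyte markers were higher in *Srsf10-kd* in 6 of 6 estimates (summed level 32.5 to 40.3 CPM in *Ctrl* and 48.5 to 71.0 CPM in *Srsf10-kd*), and their part in these values was not tested. Summed levels of macrophage and Kupffer cell (133 to 252 CPM), stellate cell (185 to 321 CPM) and endothelial cell (244 to 295 CPM) markers overlapped between the groups.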

How the data were processed

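RNA of 8 liver samples was analysed, 4 *Srsf10-kd* and 4 *Ctrl*, grouped by their labels. Directional libraries of poly(A) RNA were read from both ends. Using STAR (2.7.7a in the submitters' processing notes) and GRCm38, the authors produced and deposited raw counts per gene, with no normalization. The annotation release and strand column are not given in the sources used here. All sample columns were used. Identifiers were named from GENCODE M21 (45143 of 45706 matched).

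Counts were tested in edgeR 4.0.16 (R 4.3.3) with TMM, filterByExpr and a quasi-likelihood F test on condition, two-sided, adjusted by Benjamini-Hochberg over 15491 genes at 0.05, with DESeq2 1.42.0 and limma 3.58.1 as alternatives. The study used DESeq2. log2 CPM used a prior count of 2. Lists of markers and of other droplet genes, and the members, were chosen with earlier results of these data known. All members are named, with the gene of the other list that edgeR called in the main test and, for the 3 members of widest range, the 5 closest genes. Single genes and ratios had exact permutation tests over 70 assignments, smallest p 0.0286, and pairs of members over 40320 pairings. With 1 liver left out, a ratio had fewer assignments, with 0.0286 again the smallest p, and these p-values were not adjusted. Alternatives also changed the size factors, the filter (none, or at least 10 counts in every liver), a replicate block, a lowess trend on transcript length (span 0.5), a prior count of 0.5, and left out each liver. On simulated counts of this comparison (15310 genes) edgeR recovered 175 of 200 genes changed by 1.5 on the log2 scale, with 8 false calls. Changes as small as the estimates of the members (-0.83 to 0.16) were not simulated. The labels number the livers without saying that each is from its own mouse, so p-values measure the spread between these samples. At 50456404 to 59697241 counts a liver, counting error was small for all members but *Cidea* (47 to 382 counts).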

Additional observations from a re-analysis of the deposited data

Results flagged for a closer look

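A test for a liver far from the others of its group (Dixon's, with its 95% critical value for 4 samples) was applied to 20 groups, the 10 members in each condition, and marked 2. Chance marks about 1 in 20 groups. *Cideb* in *Srsf10-kd* 3 was at 253 CPM while the other livers of its group were at 237 to 240 CPM, with a gap of 0.836 of the group's range. *Fitm1* in *Srsf10-kd* 3 was at 85.9 CPM, above 40.1 to 47.0 CPM in its group, with a gap of 0.85 of the range.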

How the results depend on the processing

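No member was called under any of the 16 alternatives, and the adjusted p of members ran from 0.0728 to 0.983. Of 160 member values under alternatives, 146 kept their sign and 14 turned. *Plin3*, *Plin4*, *Plin5*, *Cidec* and *Fitm2* kept theirs in 16 of 16, with *Plin4* at -0.57 to -0.12. With limma-voom the log2 fold change was 0.10 for *Plin2*, -0.66 for *Cidea* and -0.12 for *Fitm1*. With the transcript length trend removed it was -0.18 for *Cidea*, -0.10 for *Cideb*, -0.15 for *Fitm1* and -0.21 for *G0s2*. With 1 liver left out in turn, log2 fold changes ran from -0.34 to 0.055 for *Plin2*, -0.31 to 0.49 for *Cidea*, -0.16 to 0.31 for *Fitm1* and -0.03 to 0.17 for *G0s2*. Log2 ratio differences ran from -0.26 to 0.23 for *Plin4* to *Plin2*, -0.1 to 0.33 for *Plin2* to *Plin3*, -0.63 to 0.56 for *Cidea* to *Cideb* and 0.01 to 0.45 for *G0s2* to *Pnpla2*, whose unadjusted exact permutation p was 0.0286 without *Ctrl* 3. The cause was not tested.

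Of the other lipid droplet genes, 1 was called by edgeR (0.071% of all genes), 5 by DESeq2 (5.27%), 9 by limma-voom (11.7%), 2 with no filter on low counts (0.173%) and 3 with a replicate block (0.381%). Leaving out 1 liver gave 0 to 5, with 0 without *Ctrl* 2 or *Srsf10-kd* 1, 2 or 4, 5 without *Ctrl* 3 (3.47% of all genes) and 2 without *Srsf10-kd* 3 (0.408%). Equal replicate numbers were not taken as pairs, since deviations of livers 1 to 4 correlated at -0.176, 0.213, 0.265 and 0.217 and not every value was over 0.1. As a hint from the data, 5 of 8 livers correlated best with their own number. The replicate block raised the genes called from 11 to 59 and changed no member's call. Genes called over the whole table ran from 0 to 544 with 1 liver left out, 544 without *Ctrl* 3. Every member but *Cidea* had at least 994 counts in each liver, and *Cidea* at least 47.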
